A study of Mus musculus with 18 samples.

Results

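The glucocorticoid receptor and its response genes were followed over the day in mouse liver as 10 genes, namely Nr3c1, Serpina6, Hsd11b1, Fkbp5, Tsc22d3, Zbtb16, Klf9, Sgk1, Mt1 and Mt2. They were taken by gene symbol, each with 1 row, from a table of 14451 genes, of which 14449 could be tested and the other 2 sat at the lowest value in every liver. The livers came from male WT mice aged 8 to 9 weeks, held in 12 h of light and 12 h of dark, and were taken whole at zeitgeber time (ZT, hours after lights on) 1, 5, 9, 13, 17 and 21. Of 5 mice per time point, the 3 with the best RNA were sequenced, so each of the 18 livers is another animal and no mouse was followed over time. All mice shared genotype, sex and housing, and no hormone was measured or given.

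Glucocorticoids, corticosterone in mice, bind a receptor that waits in the cytoplasm with chaperones, moves to the nucleus and switches genes on or off. In nocturnal animals on a light/dark cycle, the blood hormone is known to climb towards lights off and to be low early in the light. The liver makes the protein that carries the hormone, holds the enzyme that regenerates it, and answers with genes for hormone feedback, inflammation control, metal binding and metabolism.

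A value is the estimated read count of a gene plus 0.5, per 1000000 reads of the effective library size that the authors set, so levels of different genes are not compared. Depth was 10268168 to 23242842 estimated reads per liver. By 4 clock genes, 17 of the 18 livers lay nearest to the mean of their own time point. The other, ZT5 replicate 3, which is also the deepest, lay nearest to ZT9, and 9 of the 10 genes were still called by the time point test without it. Markers of hepatocytes summed to between 79833 and 110540, and none of the marker lists of other liver cells was at the floor. In whole liver, fewer cells of a type and less RNA per cell cannot be told apart.

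**Figure D1:**
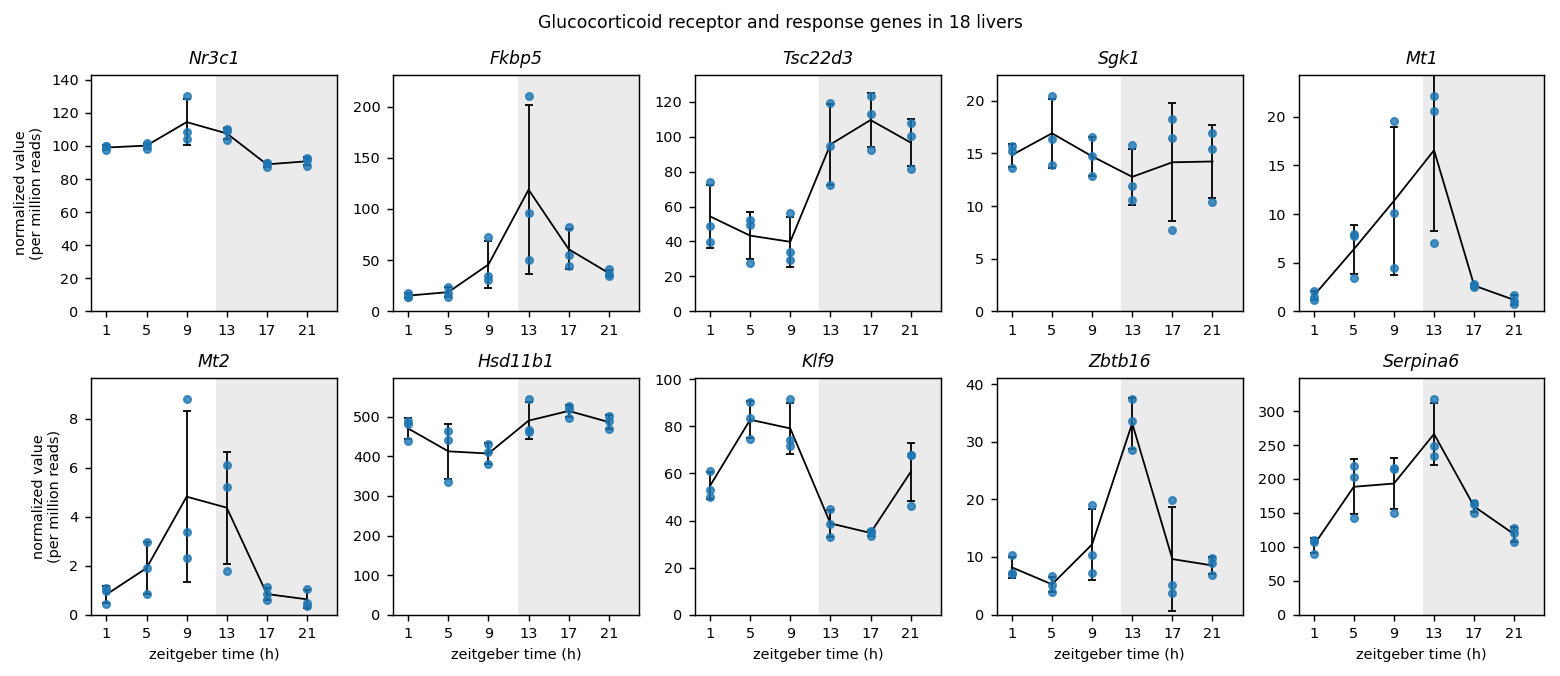
Normalized values (per 1000000 reads) of the 10 genes against zeitgeber time in hours, with 1 point per liver, the mean as a line, bars of 1 SD (n = 3) and the dark phase shaded. Fkbp5, Zbtb16 and Serpina6 are highest at ZT13, Tsc22d3 is high from ZT13 to ZT21, Klf9 is lowest at ZT13 and ZT17, and Sgk1 has no time point apart from the rest.

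A glucocorticoid response element is a palindrome of AGAACA and TGTTCT with 3 bases between, an E-box is the CACGTG that clock proteins bind, and a metal response element has the core TGCACNC or TGCGCNC. These letters were searched on both strands in the 250 bases before each annotated start in RefSeq (GRCm38.p6), which gave 14 starts for 7 of the 10 genes. The other genes are Nr3c1, Zbtb16 and Serpina6. Windows are shown for Sgk1, Fkbp5, Mt1 and Mt2, with the match in capitals, and a link of these letters to the values below was not tested. The first are those of Sgk1 with the palindrome (chr10:21993640-21993889, plus strand) and of Fkbp5 with an E-box (chr17:28486150-28486399, minus strand), both 5′ to 3′.
Sgk1: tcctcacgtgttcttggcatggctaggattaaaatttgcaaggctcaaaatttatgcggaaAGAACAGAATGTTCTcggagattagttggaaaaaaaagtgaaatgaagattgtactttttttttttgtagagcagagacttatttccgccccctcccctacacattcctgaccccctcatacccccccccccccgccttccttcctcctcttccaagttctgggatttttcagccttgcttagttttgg
Fkbp5: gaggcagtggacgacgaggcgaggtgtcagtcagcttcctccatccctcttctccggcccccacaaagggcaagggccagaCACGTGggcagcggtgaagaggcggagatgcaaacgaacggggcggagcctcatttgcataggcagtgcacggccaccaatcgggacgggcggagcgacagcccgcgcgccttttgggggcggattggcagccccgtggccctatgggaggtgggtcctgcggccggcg

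The Sgk1 palindrome begins 189 bases before 1 of 6 annotated starts. Only 3 of 32851 promoter windows (0.00913%) hold it, and Sgk1 is the 1 gene of the 10 that no test below called. A single AGAACA arm, which the palindrome contains, was in 4 of the 14 starts, beside 16.1% of all windows. These starts belong to Sgk1 and Tsc22d3 alone, and Sgk1 has 6 of the 14 starts, so they do not count as separate genes. Among them is the start with the palindrome itself. The Fkbp5 E-box begins 169 bases before the start, and 6.02% of all windows hold CACGTG, among them the Sgk1 window above, where it begins 246 bases before the start. For the metallothionein genes, the metal response cores are shown (Mt1, chr8:94178839-94179088, and Mt2, chr8:94172368-94172617, both plus strand).
Mt1: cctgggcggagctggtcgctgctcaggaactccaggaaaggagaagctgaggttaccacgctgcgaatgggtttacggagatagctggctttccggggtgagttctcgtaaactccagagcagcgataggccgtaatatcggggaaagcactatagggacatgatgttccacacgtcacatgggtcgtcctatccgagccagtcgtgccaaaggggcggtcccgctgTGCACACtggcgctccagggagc
Mt2: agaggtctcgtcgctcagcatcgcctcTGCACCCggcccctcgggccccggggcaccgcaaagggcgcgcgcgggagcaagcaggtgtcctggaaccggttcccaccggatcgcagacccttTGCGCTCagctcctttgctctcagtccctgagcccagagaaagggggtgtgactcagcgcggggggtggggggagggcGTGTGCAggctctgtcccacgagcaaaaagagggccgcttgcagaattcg

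The Mt2 window held 3 core matches, beginning 223, 128 and 50 bases before the start, and the Mt1 window held 1, beginning 23 bases before it. A core of either form is in 21.4% of windows (TGCACNC in 10.4% and TGCGCNC in 12.5%), and among the other members searched the Hsd11b1 window held 1. A match describes letters and not a bound site, a window without one says only that the letters are not there, and where transcription starts in these livers was not measured.

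Of the 10 genes, 9 differed among the 6 time points by limma's moderated F test and 9 had a 24 h cosine at an adjusted p below 0.05. Over all genes tested, 29.2% and 36.8% were called. Sgk1 was the gene not called by either. The amplitude of the 24 h cosine, on the log2(value + 1) scale, had a median of 0.69 over the 10 genes and 0.16 over all genes tested. The highest time point mean over the lowest had a median of 2.68 over the 10 genes and 1.48 over all. This ratio also grows with the spread between livers. The coefficient of variation between livers of a time point had a median of 0.231 over the 10 genes and 0.138 over all. Both the genes with large amplitudes and those near the middle of the liver transcriptome are among the 10: 0.192% of genes with a mean value of at least 1 had a larger amplitude than Mt1, 0.312% than Fkbp5, 47.9% than Hsd11b1 and 53.5% than Nr3c1.

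The receptor gene Nr3c1 (ENSMUSG00000024431, GRCm38 chr18:39410545-39519421, minus strand) varied little. The 3 livers read 99.9, 99.7 and 97.5 at ZT1 and 101, 102 and 98.3 at ZT5. At ZT9 they read 130.2, 104 and 109, and at ZT13 they read 104, 110.1 and 109. The livers of ZT17 read 87.2, 89.7 and 89.7, and those of ZT21 88.1, 91.3 and 92.8. Each of the 6 livers of ZT17 and ZT21 lay below each of the 12 of the other times, whose lowest was 97.5 at ZT1. The order of means ran ZT9, ZT13, ZT5, ZT1, ZT21, ZT17. Among these, ZT9 and ZT13, ZT5 and ZT1, and ZT21 and ZT17 overlapped. The highest mean was 1.29 times the lowest (114 ± 13.8 at ZT9, 88.9 ± 1.44 at ZT17, SD, n = 3). The time point test gave an adjusted p of 0.00512 and the cosine an amplitude of 0.16 ± 0.03 (SE) with its peak at ZT8.62 ± 0.80 h (adjusted p = 0.00296, limma).

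Serpina6 (ENSMUSG00000060807, chr12:103646630-103657212, minus strand) encodes corticosteroid-binding globulin, the blood carrier of the hormone. Its 3 livers read 89.9, 107 and 109 at ZT1, 203, 142 and 219.8 at ZT5, and 216, 150.3 and 214 at ZT9. At ZT13 they read 248, 318 and 233, at ZT17 164, 164 and 150.5, and at ZT21 120.5, 128 and 106. The 3 livers of ZT13 were above all others, and those of ZT1 overlapped only those of ZT21. From ZT1 to ZT13 the gene rose by 1.37 ± 0.16 on the log2 scale (adjusted p = 8.89e-06, limma), of which 0.86 came by ZT5 (adjusted p = 0.00224), and from ZT13 to ZT17 it fell by 0.73 (adjusted p = 0.0212). Its cosine had an amplitude of 0.59 ± 0.08 and a peak at ZT11.3 ± 0.51 h.

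Hsd11b1 (ENSMUSG00000016194, chr1:193221634-193264075, minus strand) encodes the enzyme that regenerates active corticosterone from its inert keto form in the liver. Its 3 livers read 334, 441 and 464 at ZT5, 431, 380.2 and 411 at ZT9, and 527, 498 and 520.2 at ZT17. They read 439.9, 483 and 489 at ZT1, 461, 545 and 466 at ZT13, and 501, 491 and 469 at ZT21. The 3 livers of ZT17 were above the 6 of ZT5 and ZT9, while every pair of neighbours in the order of means overlapped. The time point test gave an adjusted p of 0.0484, near the threshold, and it rose above 0.05 in 14 of 18 fits with 1 liver removed (range over all 18 from 0.0219 to 0.104). The cosine kept its call in all 18 fits, with an amplitude of 0.17 ± 0.04 and a peak at ZT18.3 ± 0.92 h (adjusted p = 0.00881, limma).

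**Figure D2:**
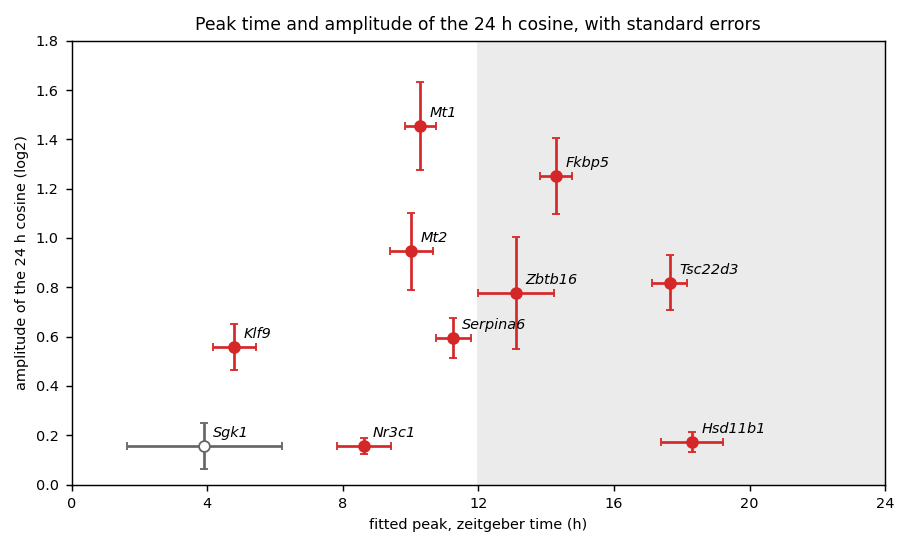
Peak time of the 24 h cosine in zeitgeber hours (horizontal) against its amplitude in log2 units (vertical), with bars of 1 SE, the dark phase shaded and the open point for the gene that was not called (Sgk1). The called peaks run from ZT4.80 for Klf9 to ZT18.3 for Hsd11b1, and Mt1 and Fkbp5 have the 2 largest amplitudes on the log2(value + 1) scale. On log2(value + 0.1), the amplitude of Mt2 (1.45) was above that of Fkbp5 (1.29).

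Of the response genes, Fkbp5 (ENSMUSG00000024222, chr17:28399094-28517527, minus strand) encodes a co-chaperone that lowers the receptor's affinity for hormone and so forms a feedback loop. Its 3 livers read 14.1, 14.1 and 17.8 at ZT1, 17.9, 14.3 and 24.1 at ZT5, and 72.2, 30.3 and 34.8 at ZT9. At ZT13 they read 210.3, 49.7 and 96.5, at ZT17 82.5, 44.8 and 54.8, and at ZT21 34.9, 41.1 and 36.1. The livers of ZT1 and ZT5 all lay below those of the other times, but ZT13 spread from 49.7 to 210.3 and overlapped ZT9 and ZT17. The highest mean was 7.74 times the lowest. From ZT1 to ZT13 it rose by 2.64 ± 0.38 on the log2 scale (adjusted p = 9.32e-05, limma), and from ZT9 to ZT13 by 1.22 (adjusted p = 0.0434). The cosine peaked at ZT14.3 ± 0.47 h with an amplitude of 1.25 ± 0.15 (SE).

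Tsc22d3 (ENSMUSG00000031431, chrX:140539528-140600659, minus strand), which encodes the anti-inflammatory regulator GILZ, peaked later. Its 3 livers read 40.0, 48.8 and 74.3 at ZT1, 27.9, 52.6 and 49.6 at ZT5, and 29.4, 33.9 and 56.2 at ZT9. At ZT13 they read 72.6, 94.9 and 119, at ZT17 123, 92.4 and 113, and at ZT21 100.5, 108 and 81.5. All 6 livers of ZT17 and ZT21 were above all 9 of ZT1, ZT5 and ZT9, and only 1 liver of ZT13 fell inside the range of ZT1. From ZT9 to ZT13 the gene rose by 1.27 ± 0.26 on the log2 scale (adjusted p = 0.0041, limma). The rise from ZT1 to ZT13, 0.82 (adjusted p = 0.0391), lost its call without any of ZT1 replicate 1, ZT1 replicate 2, ZT13 replicate 2 or ZT13 replicate 3 (adjusted p from 0.0824 to 0.172). The cosine peaked at ZT17.7 ± 0.52 h with an amplitude of 0.82 ± 0.11 (SE). The peak lay 3.36 h after that of Fkbp5 (95% interval from 1.61 to 5.11 h), an interval computed after the peaks had been seen.

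Zbtb16 (ENSMUSG00000066687, chr9:48654297-48836222, minus strand), a zinc finger repressor also called PLZF, was high at 1 time point. At ZT13 its 3 livers read 33.7, 28.6 and 37.4, and at ZT17 3.81, 19.97 and 5.12. At ZT9 they read 7.25, 10.3 and 19.0, at ZT5 5.15, 6.63 and 3.95, at ZT1 7.08, 7.24 and 10.3, and at ZT21 8.92, 9.79 and 6.86. The 3 livers of ZT13 were thus above the other 15, whose ranges overlapped except that ZT5 lay below ZT1, ZT9 and ZT21. From ZT9 to ZT13 it rose by 1.47 (adjusted p = 0.0214) and from ZT13 to ZT17 it fell by 1.999 (adjusted p = 0.0113, limma). Its 24 h cosine, with an amplitude of 0.78 ± 0.23 and an adjusted p of 0.0312, lost its call without any 1 of the 3 livers of ZT13 or ZT17 replicate 2 (adjusted p from 0.0502 to 0.0931).

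Klf9 (ENSMUSG00000033863, chr19:23141226-23168134, plus strand) encodes a Krüppel-like transcription factor that glucocorticoids are known to induce. It was lowest at ZT13 and ZT17. Its 3 livers read 74.6, 90.3 and 83.8 at ZT5, 91.6, 71.9 and 74.1 at ZT9, and 38.4, 33.1 and 44.9 at ZT13. At ZT17 they read 33.4, 35.5 and 35.3, at ZT21 67.7, 46.2 and 68.0, and at ZT1 61.2, 53.0 and 50.04. The 6 livers of ZT13 and ZT17 lay below all 12 others, and the 6 of ZT5 and ZT9 lay above the rest. The gene fell by 1.01 on the log2 scale from ZT9 to ZT13 (adjusted p = 0.000166) and was 0.77 higher at ZT21 than at ZT17 (adjusted p = 0.00816, limma). At ZT13 it was 0.49 lower than at ZT1, with an adjusted p of 0.0219, and this call was lost without ZT1 replicate 1 or 2 or ZT13 replicate 1 or 2 (adjusted p from 0.0509 to 0.0987). The cosine peaked at ZT4.80 ± 0.63 h, 11.2 h from the peak of Tsc22d3 (95% interval from 9.36 to 12.9 h). This interval too was computed after the peaks had been seen, for the pair of called genes farthest apart. It runs past 12 h, the largest gap possible on a 24 h circle. Klf9 was also the 1 gene of the 10 called for a 12 h term beside the 24 h cosine (amplitude 0.33, adjusted p = 0.0156, limma), where 1.22% of all genes tested had one. The 12 h amplitude of Zbtb16 was larger, 0.74, but was not called (adjusted p = 0.0689, limma). Without ZT17 replicate 2 it was called (adjusted p = 0.0115, limma).

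Sgk1 (ENSMUSG00000019970, chr10:21882184-21999903, plus strand), the serum- and glucocorticoid-regulated kinase that adjusts ion channels, showed no difference past the tests. The 18 livers ran from 7.74 to 20.4, with the lowest at ZT17 and the highest at ZT5. The 6 time point means ran from 12.8 ± 2.67 (SD, n = 3) at ZT13 to 16.9 ± 3.30 at ZT5, and every pair of neighbours overlapped. The adjusted p was 0.763 for the time point test and 0.374 for the cosine (limma). The difference between ZT13 and ZT1, -0.22 on the log2 scale, had a 95% interval from -0.72 to 0.29.

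Mt1 (ENSMUSG00000031765, chr8:94179082-94180327, plus strand) and Mt2 (ENSMUSG00000031762, chr8:94172664-94173568, plus strand) encode the metallothioneins, small cysteine-rich proteins that bind zinc and copper. The 3 livers of Mt1 read 2.11, 1.501 and 1.195 at ZT1, 7.90, 3.47 and 7.76 at ZT5, and 10.1, 19.5 and 4.45 at ZT9. At ZT13 they read 22.1, 20.6 and 6.99, at ZT17 2.78, 2.55 and 2.61, and at ZT21 1.09, 1.698 and 0.724. No liver of ZT1, ZT17 or ZT21 reached the lowest liver of ZT5, ZT9 or ZT13, and ZT5, ZT9 and ZT13 overlapped. From ZT1 to ZT13 Mt1 rose by 2.62 ± 0.41 on the log2 scale (adjusted p = 0.000254, limma), and from ZT13 to ZT17 it fell by 2.12 (adjusted p = 0.0107). The highest mean was 14.1 times the lowest, and the cosine peaked at ZT10.3 ± 0.47 h with an amplitude of 1.45 ± 0.18 (SE).

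By mean, Mt2 was highest at ZT9 and Mt1 at ZT13, but the median of Mt2 was higher at ZT13 (5.21) than at ZT9 (3.36). Its difference between ZT13 and ZT9, -0.07 on the log2 scale, had a 95% interval from -0.86 to 0.73. The steps of Mt2 from ZT1 to ZT5 and from ZT13 to ZT17 were not called (adjusted p = 0.380 and 0.0548, limma). Its livers read 1.07, 0.955 and 0.430 at ZT1, 2.96, 0.842 and 1.89 at ZT5, and 0.583, 0.822 and 1.11 at ZT17. They read 3.36, 8.81 and 2.30 at ZT9, 5.21, 6.13 and 1.78 at ZT13, and 0.363, 1.04 and 0.469 at ZT21, of which the last rest on 4 to 12 estimated reads. ZT9 and ZT13 lay above ZT1, ZT17 and ZT21, and ZT5 overlapped its neighbours. The peak, ZT10.0 ± 0.63 h, was 0.267 h from that of Mt1, with a 95% interval from -0.562 to 1.09 h. The rise from ZT1 to ZT13, 1.47 (adjusted p = 0.0119), lost its call without ZT1 replicate 3, ZT13 replicate 1 or ZT13 replicate 2 (adjusted p from 0.0557 to 0.0588, limma). Of the 588 exon bases of Mt2, 432 lie under the antisense gene Gm45774, and since the library kit does not mark strand, reads of both cannot be told apart. Mt1 and Mt2 shared no 50-base window, so reads of that length fall to 1 or the other.

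**Figure D3:**
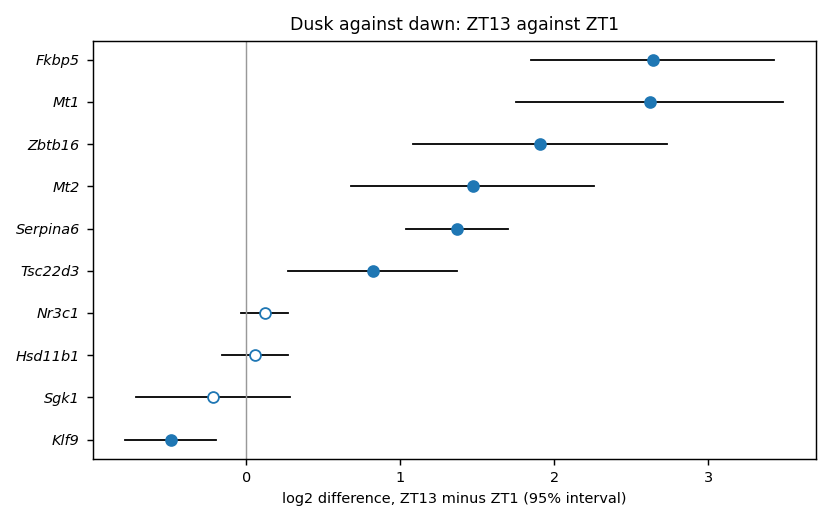
Log2 difference between ZT13 and ZT1 for the 10 genes (horizontal), with 95% intervals as lines, and filled points for an adjusted p below 0.05. Fkbp5, Mt1, Zbtb16, Mt2, Serpina6 and Tsc22d3 are higher at ZT13, Klf9 is lower, and Nr3c1, Hsd11b1 and Sgk1 were not called.

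At ZT13, just after lights off, 6 of the 10 genes were higher than at ZT1 and 1 was lower, where 7.87% and 8.13% of all genes were called in these directions. Nr3c1, at 0.12, had an adjusted p of 0.299 and a 95% interval from -0.03 to 0.27. Hsd11b1, at 0.06, had an adjusted p of 0.767 and an interval from -0.16 to 0.27. Without ZT13 replicate 2, the count of called genes was 4 in place of 7.

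The steps between neighbouring time points say where in the day a gene moved. Of the 10 genes, 4 changed from ZT9 to ZT13 (Fkbp5, Tsc22d3, Zbtb16 and Klf9), where 11.1% of all genes did. This count was 2 without ZT9 replicate 2, ZT13 replicate 1 or ZT13 replicate 3. From ZT13 to ZT17, 3 changed (Mt1, Zbtb16 and Serpina6, all lower at ZT17), where 2.08% of all genes did, and this count was 1 without ZT17 replicate 1 or 3 and 5 without ZT9 replicate 2. From ZT1 to ZT5 there were 3 (Mt1, Klf9 and Serpina6, all higher at ZT5), or 1 without ZT5 replicate 3 or without ZT1 replicate 2 or 3, beside 6.31%, and from ZT17 to ZT21 there was 1, Klf9, beside 2.30%, and 0 without ZT17 replicate 1. None was called by limma from ZT5 to ZT9, beside 2.31% of all genes, or from ZT21 to ZT1, beside 0.201%, and the unadjusted p was below 0.05 for 4 and 2 of the 10, beside 12.4% and 9.27% of all genes.

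With the algorithms of the study's methods, rewritten here from its description, the counts differed. JTK, a rank test against cosine orders, called 7 of the 10, beside 14.1% of all genes, and left out Hsd11b1, Sgk1 and Zbtb16. Its count was 3 without ZT5 replicate 2, and 4 without ZT5 replicate 1, ZT9 replicate 3 or ZT21 replicate 1. MC, which joins JTK with the Lomb–Scargle periodogram, called 8, beside 18.3%, and left out Sgk1 and Zbtb16, with 5 without ZT9 replicate 1, ZT17 replicate 1 or ZT21 replicate 1. The cosine curve of CircaN, which also asks for an R-squared of at least 0.7, called 2, beside 11.2%, namely Tsc22d3 with a period of 24.02 h and Klf9 with a period at the lower limit of 20 h. On these linear values Fkbp5 reached an R-squared of 0.485, Mt1 of 0.571 and Serpina6 of 0.681. On log2(value + 1) they reached 0.765, 0.772 and 0.742, and CircaN called 5 of the 10, these genes with Tsc22d3 and Klf9. Over all genes, the rewritten versions called 2039 (JTK), 2640 (MC) and 1621 (CircaN, cosine curve only). For each of them the paper reported more genes on these livers, so the calls given here are not the study's own.

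**Figure D4:**
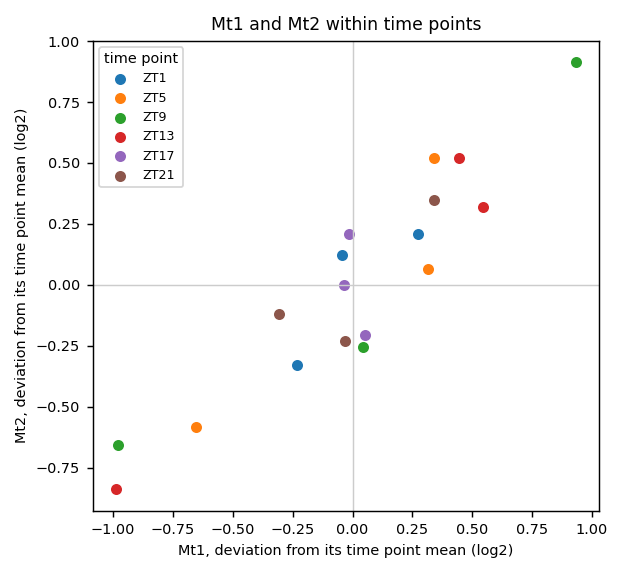
Deviation of each liver from its own time point mean for Mt1 (horizontal) and Mt2 (vertical), both in log2 units, with 1 point per liver coloured by time point. The livers of ZT5, ZT9 and ZT13 spread along the diagonal and those of ZT17 sit near 0 for Mt1.

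Between livers of the same time point, Mt1 and Mt2 deviated together, with Pearson r = 0.93 (permutation p = 0.00166, 18 livers, livers permuted within time points) and Spearman rho = 0.87 (permutation p = 0.00177). Over the 45 pairs of the 10 genes, the adjusted values were 0.0747 and 0.0796, so no pair passed. Without the 2 livers farthest from the median of Mt1, r was 0.892. Without ZT17 replicate 1, the pair had an adjusted permutation p of 0.049. Tsc22d3 and Sgk1 had r = 0.48 and rho = 0.53 (permutation p = 0.020 and 0.025, adjusted p = 0.45 and 0.562), with r = 0.495 without the 2 livers farthest from the median of Tsc22d3. The median r over the 45 pairs was -0.14, and 17 of the 45 were above 0.

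Other genes of the pathway were described by lists, which were chosen with earlier results of these data known. Over all genes tested, 29.2% were called by the time point test and 36.8% by the 24 h cosine. Of 20 chaperones and coregulators of the receptor, 13 differed among the time points and 15 had a 24 h cosine, with a median amplitude of 0.27 beside 0.16 over all genes tested. The 4 with the smallest adjusted p were Fkbp4, Hsp90aa1, Stip1 and Hspa8, parts of the chaperone cycle that prepares the receptor for hormone. The peaks of Fkbp4 (ZT17.6), Hsp90aa1 (ZT17.8) and Stip1 (ZT17.5) lay near that of Tsc22d3 and later than that of Fkbp5, and Hspa8 peaked at ZT15.0. Of 11 measured genes of steroid metabolism, 7 differed (median amplitude 0.31). H6pd, which supplies the cofactor of the Hsd11b1 enzyme, was 0.69 lower on the log2 scale at ZT13 than at ZT1 (adjusted p = 0.000314, limma) and peaked at ZT1.88, while Nr3c2, the mineralocorticoid receptor, peaked at ZT5.55. Akr1c14 and Cyp3a13, enzymes of steroid breakdown, peaked at ZT12.6 and ZT16.0.

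Of 24 further measured liver genes that glucocorticoids are known to induce, 13 differed among the time points and their directions were split, with 4 higher at ZT13 than at ZT1 and 4 lower (median amplitude 0.57). Over all genes tested, 29.2% differed, 7.87% were higher at ZT13 than at ZT1 and 8.13% lower, and these shares also stand beside the lists below. Per1, a clock gene, rose by 3.23 on the log2 scale and Mfsd2a, a lipid transporter, by 2.25. Lpin1 (2.15) and Sds (0.79) were the other higher genes. Cdkn1a and Ddit4, which restrain growth, peaked at ZT19.3 and ZT19.2 and were not called between ZT13 and ZT1. Igfbp1, Irs2, Pdk4 and G6pc were the 4 lower genes. Dusp1 and Bcl6 were called by neither the time point test nor the cosine. Tat, an enzyme of tyrosine breakdown, was called by the cosine (adjusted p = 0.0296, peak ZT19.2) and not by the time point test (adjusted p = 0.0631, limma). Of 7 measured genes listed for zinc and metallothionein control, which are metal transporters and Mtf1, 6 differed (median amplitude 0.36), with 2 higher at ZT13 than at ZT1 and 3 lower. The metal that each transporter carries in these livers was not measured. The higher genes were Slc30a1, a zinc exporter, by 0.80 on the log2 scale, and Slc39a14, an importer, by 0.87. The lower genes were Slc30a10 (-0.62), which had the smallest adjusted p of the list, and the importers Slc39a8 (-0.67) and Slc39a4 (-0.51). Mtf1, the factor that binds metal response elements, had an adjusted p of 0.0737 in the time point test. Of 6 immediate early genes, 5 differed (median amplitude 0.35) and 3 (Egr1, Junb and Fos) were lower at ZT13 than at ZT1.

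**Figure D5:**
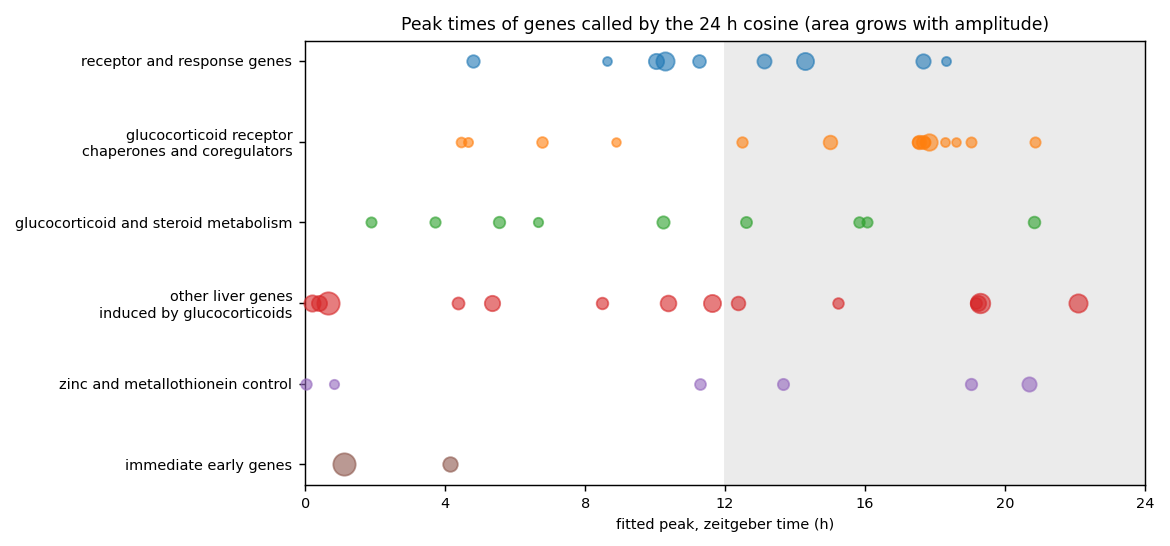
Fitted peak in zeitgeber hours (horizontal) of the genes called by the 24 h cosine, for the 10 genes and 5 pathway lists (rows), with area growing with amplitude and the dark phase shaded. Several chaperone genes gather between ZT17.5 and ZT19.0, and the other induced genes spread over the whole day.

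By the pattern over the 18 livers, the genes most like the members were Fmo2 and Tpcn1 for Fkbp5 (both r = 0.95), Mmp19 and Higd1a for Tsc22d3 (r = 0.90 and 0.87), and Etnk2 and Bnip3 for Serpina6 (r = 0.93 and 0.92). For Klf9 they were Snapin and Dclre1c (r = 0.94 and 0.93), for Zbtb16 Hspa1a and Slc2a4 (r = 0.87 and 0.82), and for Hsd11b1 Aldh1a1 and Gsta3 (both r = 0.94). For Nr3c1 they were Itch and Spred1 (r = 0.90 and 0.87), for Mt1 Adipor1 and Slc25a28 (r = 0.90 and 0.88), and for Mt2 Slc25a28 and Vav2 (r = 0.88 and 0.85). These are descriptions over livers that share the time of day, and the highest of 12480 genes with a mean value of at least 1 were picked.

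The markers of other liver cells were set beside these values. By limma's time point test, 2 of 7 Kupffer cell markers and 1 of 7 sinusoidal endothelial markers were called, beside 29.2% of all genes. The 24 h cosine called more of them, 4 of 7 and 3 of 7, beside 36.8% of all genes. Peaks of the called Kupffer cell markers ran from ZT8.10 (Timd4) to ZT8.52 (Marco). Those of the called endothelial markers ran from ZT6.46 (Oit3) to ZT7.88 (Stab2). The Kupffer cell sums ran from 213 to 291 at ZT5, from 109.55 to 248 at ZT17 and from 109.7 to 167 at ZT21, so ZT17 overlapped ZT5 and ZT21 did not. The endothelial sums ran from 216 to 261 at ZT5, from 117 to 218 at ZT17 and from 123 to 186 at ZT21, with the same overlap. At ZT1 the sums, 124 to 258 for Kupffer cells and 149 to 224 for endothelial cells, overlapped those of ZT5. The levels of Nr3c1, Mt1 and Mt2 were low at ZT17 and ZT21. The means of Mt1 and Mt2 were also low at ZT1 (1.60 and 0.82, beside 2.65 and 0.84 at ZT17). The part of these cells in the levels of the 3 genes was not tested. Of the markers of hepatocytes, 3 of 7 were called by the time point test, of cholangiocytes 1 of 6, and of stellate cells (7), lymphocytes (4) and red blood cells (5) none. The cosine called 3 hepatocyte, 3 cholangiocyte and 1 stellate cell marker, and none of lymphocytes or red blood cells.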

How the data were processed

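Polyadenylated RNA of 18 mouse livers was sequenced as 50-base single reads with a kit that does not mark strand. The authors trimmed the reads with Cutadapt, quantified them on the GRCm38 Ensembl 84 transcriptome with RSEM (1.2.20 per the labels) and normalized the estimated counts with limma. Each deposited value is a linear signal, an estimated count plus an offset of 0.5 per 1000000 reads of an effective library size.

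The log2(value + 1) of 14449 genes was fitted with limma 3.58.1 in R 4.3.3, with a trend and no covariate, and adjusted by Benjamini–Hochberg over all genes. Fold changes of low genes are understated on this scale. JTK, MC and the cosine curve of CircaN were rewritten in Python 3.11.15 from the study's description. All fits were tested on simulated data. The genes named beside the 10 are, for each list, the up to 4 with the smallest adjusted p in the time point test, and the 2 most alike genes of each called member. Other list genes named (Lpin1, Sds, Igfbp1, Irs2, Pdk4, G6pc, Slc39a4, Tat, Dusp1, Bcl6 and Mtf1) were chosen after their values were seen. The members and lists were chosen with earlier results of these data known. Replicate numbers follow accession order and name livers only. Pairs were permuted 100000 times within time points. Alternatives covered pseudocount, filter, rescaling, trend and each liver left out. Coordinates and sequences are those of GRCm38.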

Additional observations from a re-analysis of the deposited data

How the results depend on the processing

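Other pseudocounts, filters, rescalings and fits without a trend moved no count of called genes by over 1.5 times, except that the cosine curve of CircaN called 5 of the 10 genes on log2 values and 1 when a period at its limit was no call, against 2. With 1 liver left out, the genes called ran from 8 to 9 for the time point test, 8 to 9 for the 24 h cosine, 1 to 2 for the 12 h term (2 without ZT17 replicate 2), and 4 to 7 for ZT13 against ZT1 (4 without ZT13 replicate 2). They ran from 1 to 3 for ZT5 against ZT1 (1 without ZT1 replicate 2, ZT1 replicate 3 or ZT5 replicate 3), 0 to 1 for ZT9 against ZT5 (1 without ZT13 replicate 1 or ZT17 replicate 2), 2 to 5 for ZT13 against ZT9 (2 without ZT9 replicate 2, ZT13 replicate 1 or ZT13 replicate 3), 1 to 5 for ZT17 against ZT13 (1 without ZT17 replicate 1 or 3, 5 without ZT9 replicate 2), 0 to 1 for ZT21 against ZT17 (0 without ZT17 replicate 1), and 0 to 0 for ZT1 against ZT21. JTK called 3 to 7 (3 without ZT5 replicate 2, 4 without ZT5 replicate 1, ZT9 replicate 3 or ZT21 replicate 1), MC 5 to 7 against 8 with all livers (5 without ZT9 replicate 1, ZT17 replicate 1 or ZT21 replicate 1), CircaN 2 to 3, and 0 to 1 pairs passed (1 without ZT17 replicate 1). The difference of Hsd11b1 between ZT13 and ZT1 ran from -0.0208 (without ZT13 replicate 2) to 0.0993. The time point call of Hsd11b1 was lost on column sums of 1000000 (adjusted p = 0.186), on quantile normalization (0.115) and without a trend (0.102), and the call of Tsc22d3 between ZT13 and ZT1 without a trend (0.066, limma). The cause was not tested. No paired analysis was possible because each mouse was sampled once and the replicate numbers were given in accession order. Depth limits Mt2 most, with as few as 4 estimated reads in a liver.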
